A study of Homo sapiens with 8 samples.

Results

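The genes described here are 49 interferon-stimulated genes, sensors of double-stranded RNA and antigen display genes, chosen by symbol from a list made with earlier results of these data known. All 49 stand among the 27140 genes of the count table, and 48 of them, all but MX2, had enough counts to be tested, as did 15289 genes in all. RNA was measured by sequencing in LNCaP, a human prostate adenocarcinoma line derived from a lymph node metastasis. Every line had been transduced with lentivirus, selected with puromycin at 1 µg/ml and grown in RPMI-1640 with fetal bovine serum, and each of the 4 groups is 1 stable line with 2 libraries. The mutant rescue carried a hairpin against METTL3 and a hairpin-resistant METTL3 that is catalytically dead, and the wild-type rescue carried a METTL3 hairpin with a resistant wild-type METTL3. The knockdown carried the METTL3 hairpin with a vector, and the control a control hairpin with a vector. The labels leave unsaid whether the lines are clones, whether both libraries of 1 line were grown as separate cultures, and which sequence the hairpin targets, so each p-value measures only the spread between these libraries.

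METTL3 is the enzyme that writes N6-methyladenosine on messenger RNA. Interferons are secreted proteins that bind receptors on the cell surface, and the attached JAK kinases then activate the STAT proteins. A complex that holds STAT2 and IRF9 binds the interferon-stimulated response element in the promoters of antiviral genes. Cells start making interferon when sensors such as RIG-I (the product of DDX58) and MDA5 (the product of IFIH1) bind double-stranded RNA in the cytoplasm and signal through MAVS on mitochondria. ADAR edits adenosines in the cell's own double-stranded RNA, which keeps such RNA from being read as foreign. LNCaP has been described as deficient in the kinase JAK1.

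Promoter sequence is shown for the 6 members that were called higher in the knockdown than in the control and differed by a log2 fold change of at least 1, the members with the largest rises in that comparison. Each run holds the 250 bases before the annotated start of the gene, from RefSeq on GRCh38.p14, written along the strand of the gene. Capitals mark GAAA, any 2 bases and GAAA again, the core of the interferon-stimulated response element, or its reverse complement. The intervals are, in the order printed, chr1:78620198-78620447, plus strand; chr4:76023498-76023747, minus strand; chr10:89392373-89392622, plus strand; chr1:78649539-78649788, plus strand; chr2:6865635-6865884, plus strand; and chr1:27672193-27672442, minus strand.
IFI44L: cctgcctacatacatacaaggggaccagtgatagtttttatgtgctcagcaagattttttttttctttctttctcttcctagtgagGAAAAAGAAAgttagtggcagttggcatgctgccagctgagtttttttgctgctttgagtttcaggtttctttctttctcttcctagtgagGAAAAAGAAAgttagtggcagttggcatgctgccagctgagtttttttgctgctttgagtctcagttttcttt
CXCL10: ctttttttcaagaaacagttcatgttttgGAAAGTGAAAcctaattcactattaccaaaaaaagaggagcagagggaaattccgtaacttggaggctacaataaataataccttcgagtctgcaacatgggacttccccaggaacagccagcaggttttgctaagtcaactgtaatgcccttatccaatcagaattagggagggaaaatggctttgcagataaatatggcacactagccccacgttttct
IFIT1: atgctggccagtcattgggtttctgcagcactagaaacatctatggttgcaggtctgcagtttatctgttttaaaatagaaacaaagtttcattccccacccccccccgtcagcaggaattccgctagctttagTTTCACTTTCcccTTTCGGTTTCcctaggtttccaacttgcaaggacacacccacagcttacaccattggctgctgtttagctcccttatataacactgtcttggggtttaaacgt
IFI44: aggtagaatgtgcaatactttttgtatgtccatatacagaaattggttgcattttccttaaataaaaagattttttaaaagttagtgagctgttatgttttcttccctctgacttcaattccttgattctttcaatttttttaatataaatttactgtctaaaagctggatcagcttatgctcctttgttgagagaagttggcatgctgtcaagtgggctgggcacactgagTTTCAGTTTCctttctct
RSAD2: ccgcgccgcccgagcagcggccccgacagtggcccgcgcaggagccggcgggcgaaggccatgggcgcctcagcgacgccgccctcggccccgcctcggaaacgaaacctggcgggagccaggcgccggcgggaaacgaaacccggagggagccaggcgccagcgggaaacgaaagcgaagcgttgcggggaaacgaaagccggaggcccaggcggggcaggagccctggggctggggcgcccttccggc
IFI6: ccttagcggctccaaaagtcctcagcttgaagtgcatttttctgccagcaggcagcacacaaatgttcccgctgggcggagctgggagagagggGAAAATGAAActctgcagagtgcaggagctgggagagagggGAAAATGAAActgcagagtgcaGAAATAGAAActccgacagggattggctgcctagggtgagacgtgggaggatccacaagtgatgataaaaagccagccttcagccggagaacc
IFI44L and IFIT1 had 2 matches each, IFI6 had 3, CXCL10 and IFI44 had 1 each, and the motif letters are not in the RSAD2 window. The RSAD2 window lies downstream of the annotated start of CMPK2, whose own window is chr2:6866636-6866885, minus strand. A promoter of 300 bases (250 before to 50 after the start) was found for 41 of the 49 members, DDX58 under its current symbol RIGI. Only 1 annotated start was used for each gene, so matches near any other start, of RSAD2 or another member, were not counted. The interferon motif was searched on both strands, and overlapping matches were counted apart. Of these 41 promoters 25 held it (61.0%), against 3.65% of 27305 RefSeq promoters of the same length. The palindromic motif TTCNNNGAA, the site bound by STAT dimers, was in 26.8% of the member promoters and in 7.88% of all. A match describes these letters and is not evidence of binding.

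The 8 libraries held 15200343 to 17893241 counts, and the 49 genes together took 0.197% to 0.223% of them. Within a line the libraries were close to counting noise, for which a chi-square per degree of freedom is about 1. It was 1.21 in the mutant rescue, 1.36 in the wild-type rescue, 1.21 in the knockdown and 1.26 in the control. The common biological coefficient of variation was 1.40%. Small adjusted p-values rest on this narrow spread, and variation between independently made lines was not measured. Levels are given as CPM, counts scaled by the TMM-corrected size of the library, in the order replicate 1 and replicate 2. METTL3 stood at 333 and 334 CPM in the mutant rescue, 309 and 325 CPM in the wild-type rescue, 26.2 and 31.3 CPM in the knockdown and 68.4 and 68.5 CPM in the control. The deposited counts do not separate the endogenous gene from the introduced copies. The 10 luminal prostate markers, among them KLK3 and TMPRSS2, were expressed in every library, at 110.6 CPM or more as line means. Their summed level was 7885 to 7915 CPM in the mutant rescue, 7937 to 8016 CPM in the wild-type rescue, 7708 to 7775 CPM in the knockdown and 9556 to 9604 in the control. Of 7 leukocyte markers, PTPRC (CD45) had a line mean of at most 0.0282 CPM. The summed leukocyte markers, which are mostly CD68, stood at 22.0 to 23.0 CPM in the mutant rescue, 16.8 to 19.8 CPM in the wild-type rescue, 19.1 to 19.4 CPM in the knockdown and 24.8 to 27.8 in the control. The plasmacytoid dendritic cell markers LILRA4 and IL3RA were at 0 in all libraries. The summed fibroblast markers, mostly COL1A1, stood at 98.8 to 104.5 CPM in the mutant rescue, 95.4 to 96.9 CPM in the wild-type rescue, 81.6 to 89.5 CPM in the knockdown and 78.1 to 78.9 CPM in the control. The summed endothelial markers, mostly VWF, stood at 5.60 to 5.69 CPM in the mutant rescue, 6.64 to 7.35 CPM in the wild-type rescue, 9.21 to 10.8 CPM in the knockdown and 7.43 to 7.64 CPM in the control. The summed basal epithelial markers lay between 2.64 and 4.01 CPM in all lines. Whether these marker levels bear on the members was not tested. Replicate 1 of the wild-type rescue stood apart from replicate 2 in BASP1 (163 against 39 counts), S100A6 (77 against 10) and GSTP1 (38 against 5), genes picked with their values known. IFI16, a DNA sensor that failed the filter on low counts, had 20 and 6 counts in these 2 libraries and 2 to 7 in the other 6.

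Of the interferon-stimulated genes and sensors listed here, most were called higher in the METTL3 knockdown than in the control. Each group is 1 line, so depletion of METTL3, any other effect of the hairpin and the line cannot be told apart here. A further list of 35 tested interferon-stimulated genes outside the set had 10 higher (28.6%) and 9 lower (25.7%). Of 48 tested members 29 rose and 6 fell, that is, were called at an edgeR adjusted p under 0.05. Among all tested genes 22.9% rose and 25.1% fell, against 60.4% and 12.5% of the members. The median log2 fold change was 0.32 over the members and -0.011 over all tested genes. In 6 members the rise reached a log2 fold change of 1, which 2.13% of all genes did, and no member fell that far, as 1.23% of all genes did. By role, 3 of 4 IFIT genes, 5 of 6 RNA-binding effectors, 3 of 4 genes of the ISG15 pathway and both chemokines rose. So did 5 of 8 interferon-induced genes of unsettled function, 4 of 8 other antiviral effectors and 2 of 3 ADP-ribosyltransferases. Rises were also called in 3 of 6 sensors and adaptors, 1 of 4 transcription factors (25%, near the share of all genes) and 1 of 3 antigen display genes. The falls were 2 of 6 sensors and adaptors, 1 of 4 IFIT genes and 1 of 8 other antiviral effectors. They also were 1 of 3 ADP-ribosyltransferases and 1 of 3 antigen display genes.

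The line with wild-type METTL3 added back was compared with the knockdown. METTL3 stood there at 309 and 325 CPM, above the 68.4 and 68.5 CPM of the control, and each group is 1 line. The activity of METTL3, its level and the line therefore cannot be told apart. In the wild-type rescue 4 members rose and 12 fell against the knockdown (8.33% and 25%), where 10.8% and 13.2% of all genes did. The median was -0.069, beside 0.0060 over all tested genes, and no member changed by a log2 fold change of 1, where 0.105% of all genes rose and 0.124% fell that far. Leaving out wild-type rescue replicate 1 gave 4 and 12 again, and leaving out replicate 2 gave 2 and 9. With either knockdown replicate left out, 2 members rose.

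In the line with catalytically dead METTL3 members were called in both directions. Against the knockdown and the wild-type rescue alike, the share that rose was below that of all genes. Against the knockdown 9 members rose and 19 fell in the mutant rescue (18.8% and 39.6%), where 25.9% and 25.8% of all genes did, with a median of -0.13 over the members. RSAD2 fell by a log2 fold change over 1, HERC6 by just under 1, and no member rose that far, against 1.6% of all genes lower and 0.89% higher by that size. Against the wild-type rescue, which carried wild-type METTL3 and is another line, 8 members rose and 13 fell (16.7% and 27.1%). Here 21% and 20.3% of all genes did, and the median was -0.076 over the members. The members that fell against the wild-type rescue were 2 of 6 sensors and adaptors, 3 of 6 RNA-binding effectors and 1 of 4 IFIT genes. They also were 2 of 4 genes of the ISG15 pathway, 2 of 8 other antiviral effectors, 2 of 8 genes of unsettled function and 1 of 3 ADP-ribosyltransferases. Those that rose were 3 of 4 transcription factors, all 3 antigen display genes, 1 of 6 RNA-binding effectors and 1 of 3 ADP-ribosyltransferases. With so few genes in a role, a share such as 1 of 4 (25%) lies near the 20.3% of all genes.

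Against the control both rescue lines had more members higher than lower. In the mutant rescue 24 members were higher and 8 lower (50% and 16.7%), where 29.1% and 29.7% of all genes were. In the wild-type rescue 26 were higher and 7 lower (54.2% and 14.6%), where 23.8% and 25.5% of all genes were. Without wild-type rescue replicate 2 the 7 became 4, and without control replicate 2 the 8 members lower in the mutant rescue became 5. The 6 comparisons use the same 4 lines, so those that share a line are not independent of each other. In what follows, the amount by which a gene rose, fell or was higher or lower is a log2 fold change, and a call is lost where its adjusted p is not under 0.05 with the alternative or the left-out library named.

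**Figure D1:**
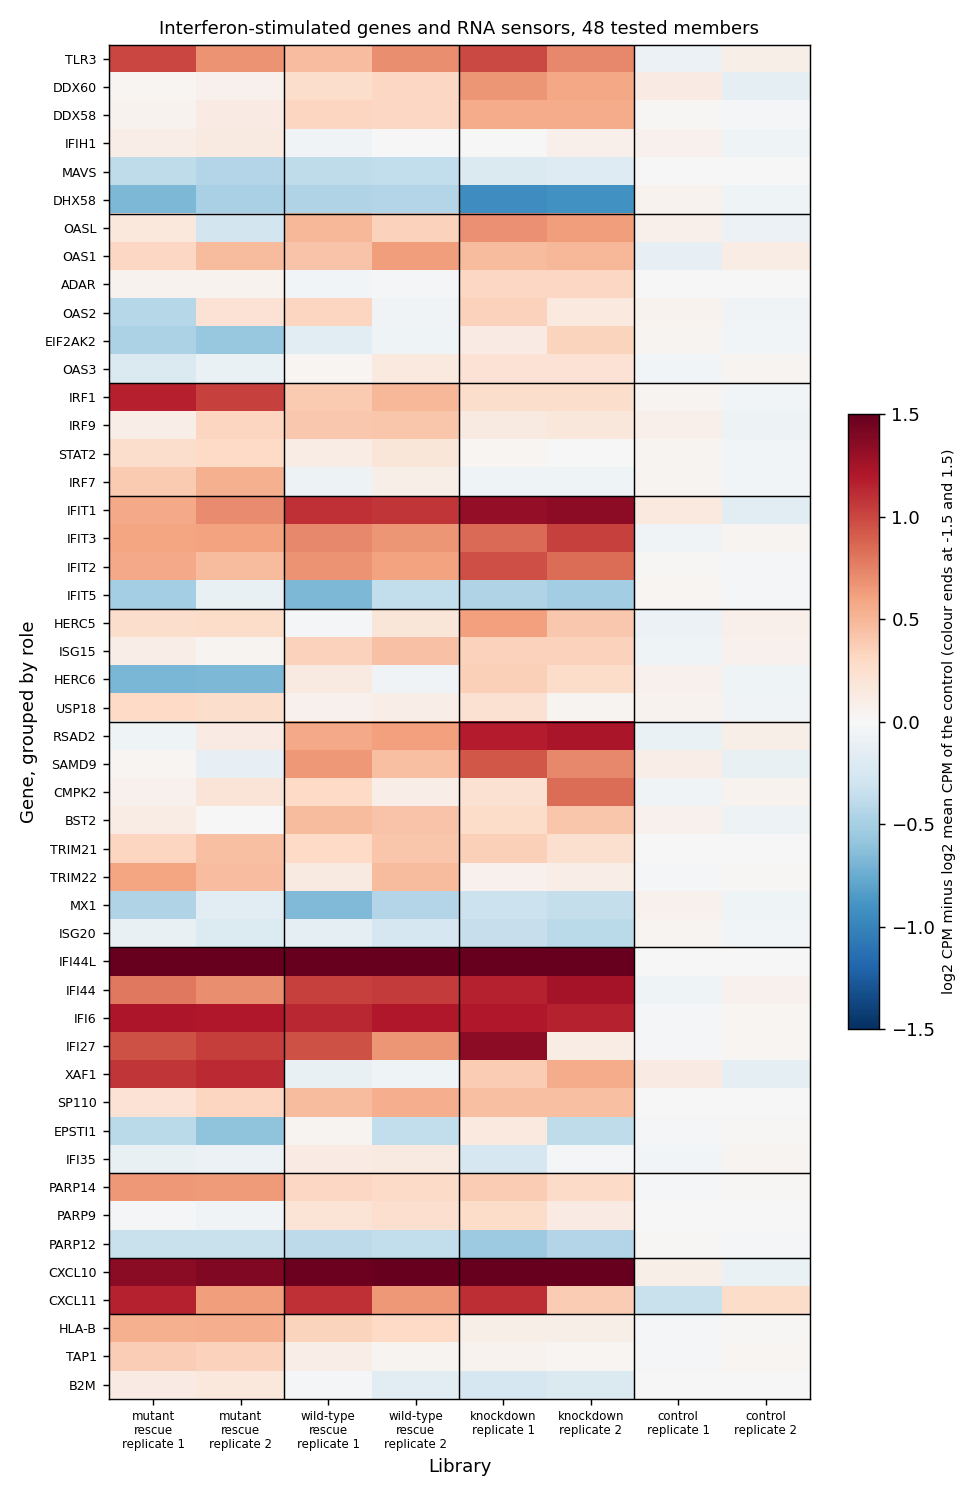
Levels of the 48 tested members (rows, grouped by role) in the 8 libraries (columns), as log2 CPM minus the log2 mean CPM of the control. Red is above the control mean and blue below it; IFI44L, CXCL10, IFI6 and IFI44 are red in all 6 libraries with the METTL3 hairpin, and MAVS and DHX58 are blue in all 6.

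Of the 6 sensors and their adaptor, TLR3, DDX60 and DDX58 rose on knockdown, and MAVS and DHX58 fell. DDX58 had 28.8 and 30.2 CPM in the mutant rescue and 34.7 and 34.4 CPM in the wild-type rescue, with 40.8 and 40.9 CPM in the knockdown against 28.1 and 27.3 CPM in the control. The knockdown libraries were the highest, the wild-type rescue lay between, and the mutant rescue lay just above the control. DDX58 rose on knockdown by 0.56 (SE 0.065, edgeR adjusted p = 1.24e-13) and fell against the knockdown by 0.47 (SE 0.064, edgeR adjusted p = 1.43e-10) in the mutant rescue and by 0.24 (SE 0.061, edgeR adjusted p = 0.00119) in the wild-type rescue. The mutant rescue was below the wild-type rescue (log2 fold change -0.23, SE 0.067, edgeR adjusted p = 0.00302), lost at an adjusted p of 0.0547 without mutant rescue replicate 1. DDX60, a helicase reported to aid these sensors, had 17.3 and 17.8 CPM with dead METTL3, 20.4 and 21.2 CPM with wild-type METTL3, 26.9 and 25.4 CPM in the knockdown and 18.5 and 15.5 CPM in control cells. It rose on knockdown by 0.62 (SE 0.084, edgeR adjusted p = 7.13e-11) and was lower in the mutant rescue than in the knockdown by 0.57 (SE 0.084, edgeR adjusted p = 1.10e-09). IFIH1, which encodes the sensor MDA5, had 29.0 and 29.7 CPM in the mutant rescue and 26.1 and 27.2 CPM in the wild-type rescue. It had 27.2 and 28.7 CPM in the knockdown and 28.4 and 26.0 CPM in the control. None of its 6 comparisons was called.

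TLR3, the sensor of double-stranded RNA in endosomes, had 7.94 and 6.36 CPM in the mutant rescue and 5.48 and 6.46 CPM in the wild-type rescue, with 7.90 and 6.54 CPM in the knockdown against 3.73 and 4.22 CPM in the control. All 6 hairpin libraries lay above both control libraries, with a rise on knockdown of 0.87 (SE 0.16, edgeR adjusted p = 1.78e-06). In the mutant rescue against the knockdown the log2 fold change of TLR3 was -0.025 (SE 0.14), which was not called. DHX58 encodes LGP2, a relative of RIG-I that tunes the other sensors, and moved the other way. It had 3.57 and 4.09 CPM with dead METTL3, 4.19 and 4.20 CPM with wild-type METTL3, 2.99 and 3.05 CPM in the knockdown and 5.94 and 5.48 CPM in control cells. The knockdown was lowest and the control highest. DHX58 fell on knockdown by 0.92 (SE 0.18, edgeR adjusted p = 6.53e-06); its values against the knockdown, 0.35 (SE 0.20) in the mutant rescue and 0.47 (SE 0.19) in the wild-type rescue, were not called. MAVS, the adaptor through which RIG-I and MDA5 signal, had 236 and 225 CPM in the mutant rescue, 235 and 237 CPM in the wild-type rescue, 264 and 268 CPM in the knockdown and 304 and 308 CPM in the control. Both control libraries lay above the 6 others, and MAVS fell on knockdown by 0.20 (SE 0.025, edgeR adjusted p = 2.78e-12). It was lower still in both rescues, by 0.21 (SE 0.027, edgeR adjusted p = 1.24e-11) in the mutant rescue and by 0.17 (SE 0.026, edgeR adjusted p = 2.80e-08) in the wild-type rescue, both against the knockdown; the call in the wild-type rescue was lost at an adjusted p of 0.395 with the length trend removed.

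Among proteins that act on double-stranded RNA, EIF2AK2 encodes PKR, the kinase that stops translation when it binds such RNA. EIF2AK2 had 21.4 and 20.1 CPM in the mutant rescue and 26.5 and 28.6 CPM in the wild-type rescue, with 32.6 and 37.7 CPM in the knockdown against 30.8 and 29.0 CPM in the control. The mutant rescue libraries were the lowest of the 8, and the knockdown libraries the highest. Against the knockdown it fell by 0.75 (SE 0.075, edgeR adjusted p = 1.91e-17) in the mutant rescue and by 0.34 (SE 0.069, edgeR adjusted p = 2.68e-05) in the wild-type rescue, and the mutant rescue also lay below the wild-type rescue (log2 fold change -0.41, SE 0.079, edgeR adjusted p = 4.14e-06). Its rise on knockdown, 0.23 (SE 0.069), was lost at an adjusted p of 0.0583 with DESeq2, 0.230 without knockdown replicate 2 and 0.0775 without control replicate 2. ADAR had 396 and 395 CPM with dead METTL3, 369.8 and 374 CPM with wild-type METTL3, 475 and 474 CPM in the knockdown and 384 and 379 CPM in control cells. The knockdown libraries stood above the 6 others, with the mutant rescue just above the control and the wild-type rescue just below it. ADAR rose on knockdown by 0.31 (SE 0.022, edgeR adjusted p = 3.57e-28) and fell by 0.26 (SE 0.022, edgeR adjusted p = 3.37e-22) in the mutant rescue and by 0.35 (SE 0.022, edgeR adjusted p = 1.06e-31) in the wild-type rescue, both against the knockdown. The mutant rescue was above the wild-type rescue by 0.088 (SE 0.023, edgeR adjusted p = 7.21e-04).

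The oligoadenylate synthetases make a second messenger when they bind double-stranded RNA. OASL, a member of that family without synthetase activity, had 19.0 and 14.0 CPM in the mutant rescue, 24.0 and 21.5 CPM in the wild-type rescue, 27.4 and 26.2 CPM in the knockdown and 17.9 and 16.0 CPM in the control. It was highest in the knockdown, and the mutant rescue overlapped the control. OASL rose on knockdown by 0.66 (SE 0.086, edgeR adjusted p = 4.81e-11) and fell against it by 0.71 (SE 0.087, edgeR adjusted p = 4.08e-12) in the mutant rescue. OAS3, the form that responds to long RNA, had 45.9 and 49.5 CPM in the mutant rescue and 54.5 and 58.7 CPM in the wild-type rescue, with 61.8 and 62.1 CPM in the knockdown against 51.8 and 54.6 CPM in the control. It rose on knockdown by 0.22 (SE 0.051, edgeR adjusted p = 1.12e-04), and the mutant rescue was lowest of the 4 lines, and lay below the wild-type rescue (log2 fold change -0.25, SE 0.053, edgeR adjusted p = 3.14e-05). OAS1 rose on knockdown to 6.38 and 6.48 CPM, against 4.23 and 4.98 CPM in the control (log2 fold change 0.48, SE 0.16, edgeR adjusted p = 0.00807), lost at an adjusted p of 0.0856 with DESeq2 and 0.126 without control replicate 1. OAS2 was near the detection limit, with 11 to 22 counts a library, and no comparison of it was called.

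Of the 4 transcription factors, IRF1, IRF7 and STAT2 were highest in the mutant rescue, and 3 rose there against the wild-type rescue. IRF1, an early interferon response factor, had 57.8 and 52.6 CPM with dead METTL3, 33.8 and 36.4 CPM with wild-type METTL3, 31.0 and 31.1 CPM in the knockdown and 26.6 and 25.0 CPM in control cells. The mutant rescue libraries lay above all others and the control libraries below all others. IRF1 rose by 0.65 (SE 0.058, edgeR adjusted p = 9.92e-20) in the mutant rescue over the wild-type rescue, by 0.83 (SE 0.060, edgeR adjusted p = 2.84e-27) in the mutant rescue against the knockdown, and on knockdown itself by 0.27 (SE 0.071, edgeR adjusted p = 8.06e-04). IRF7, which drives interferon alpha genes, had 30.9 and 34.2 CPM in the mutant rescue, 22.4 and 25.0 CPM in the wild-type rescue, 22.6 and 22.6 CPM in the knockdown and 24.3 and 22.9 CPM in the control. The mutant rescue was again highest, by 0.46 (SE 0.073, edgeR adjusted p = 5.00e-08) over the wild-type rescue, while the wild-type rescue overlapped both the knockdown and the control, and the knockdown libraries lay just below the control. STAT2 had 93.4 and 95.9 CPM in the mutant rescue and 84.2 and 88.1 CPM in the wild-type rescue, with 79.3 and 78.5 CPM in the knockdown against 80.4 and 75.6 CPM in the control. STAT2, a signal carrier of the interferon receptor, showed a rise in the mutant rescue of 0.26 (SE 0.043, edgeR adjusted p = 6.45e-08) over the knockdown. Its smaller rise over the wild-type rescue (log2 fold change 0.13, SE 0.043, edgeR adjusted p = 0.00654) was lost at an adjusted p of 0.0653 with DESeq2, 0.0919 without mutant rescue replicate 2 and 0.111 without wild-type rescue replicate 1. IRF9, the DNA-binding partner of STAT2, had 11.8 and 13.8 CPM with dead METTL3, 14.6 and 14.7 CPM with wild-type METTL3, 12.1 and 12.4 CPM in the knockdown and 11.6 and 10.5 CPM in control cells. IRF9 was called in 1 comparison, higher in the wild-type rescue than in the control by 0.41 (SE 0.11, edgeR adjusted p = 6.17e-04).

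The IFIT proteins bind foreign RNA ends and are among the most inducible interferon products. IFIT1 had 16.7 and 18.4 CPM in the mutant rescue, 24.2 and 23.9 CPM in the wild-type rescue, 28.2 and 28.7 CPM in the knockdown and 12.5 and 10.1 CPM in the control. No 2 lines overlapped, in the order knockdown, wild-type rescue, mutant rescue and control. IFIT1 rose on knockdown by 1.33 (SE 0.090, edgeR adjusted p = 1.81e-29) and was lower in the mutant than in the wild-type rescue by 0.45 (SE 0.085, edgeR adjusted p = 3.67e-06); it stayed above the control in the mutant rescue by 0.64 (SE 0.10, edgeR adjusted p = 1.64e-08). The mean of IFIT2 was 32.7 ± 1.42 CPM in the mutant rescue, 35.5 ± 1.33 CPM in the wild-type rescue, 42.6 ± 2.76 CPM in the knockdown and 22.7 ± 0.450 in the control (SD, n = 2 each). IFIT3, its binding partner, had 11.1 and 11.2 CPM in the mutant rescue and 12.1 and 11.7 CPM in the wild-type rescue, with 13.3 and 15.0 CPM in the knockdown against 7.14 and 7.62 CPM in the control. IFIT2 rose on knockdown by 0.91 (SE 0.068, edgeR adjusted p = 5.65e-26) and IFIT3 by 0.93 (SE 0.12, edgeR adjusted p = 4.39e-12). IFIT5, the neighbouring family member, went the other way, at 7.01 and 9.19 CPM with dead METTL3, 6.25 and 7.74 CPM with wild-type METTL3, 7.28 and 6.93 CPM in the knockdown and 10.2 and 9.76 CPM in control cells. IFIT5 was lower on knockdown by 0.49 (SE 0.13, edgeR adjusted p = 8.92e-04), and its promoter held 3 matches to the interferon motif.

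**Figure D2:**
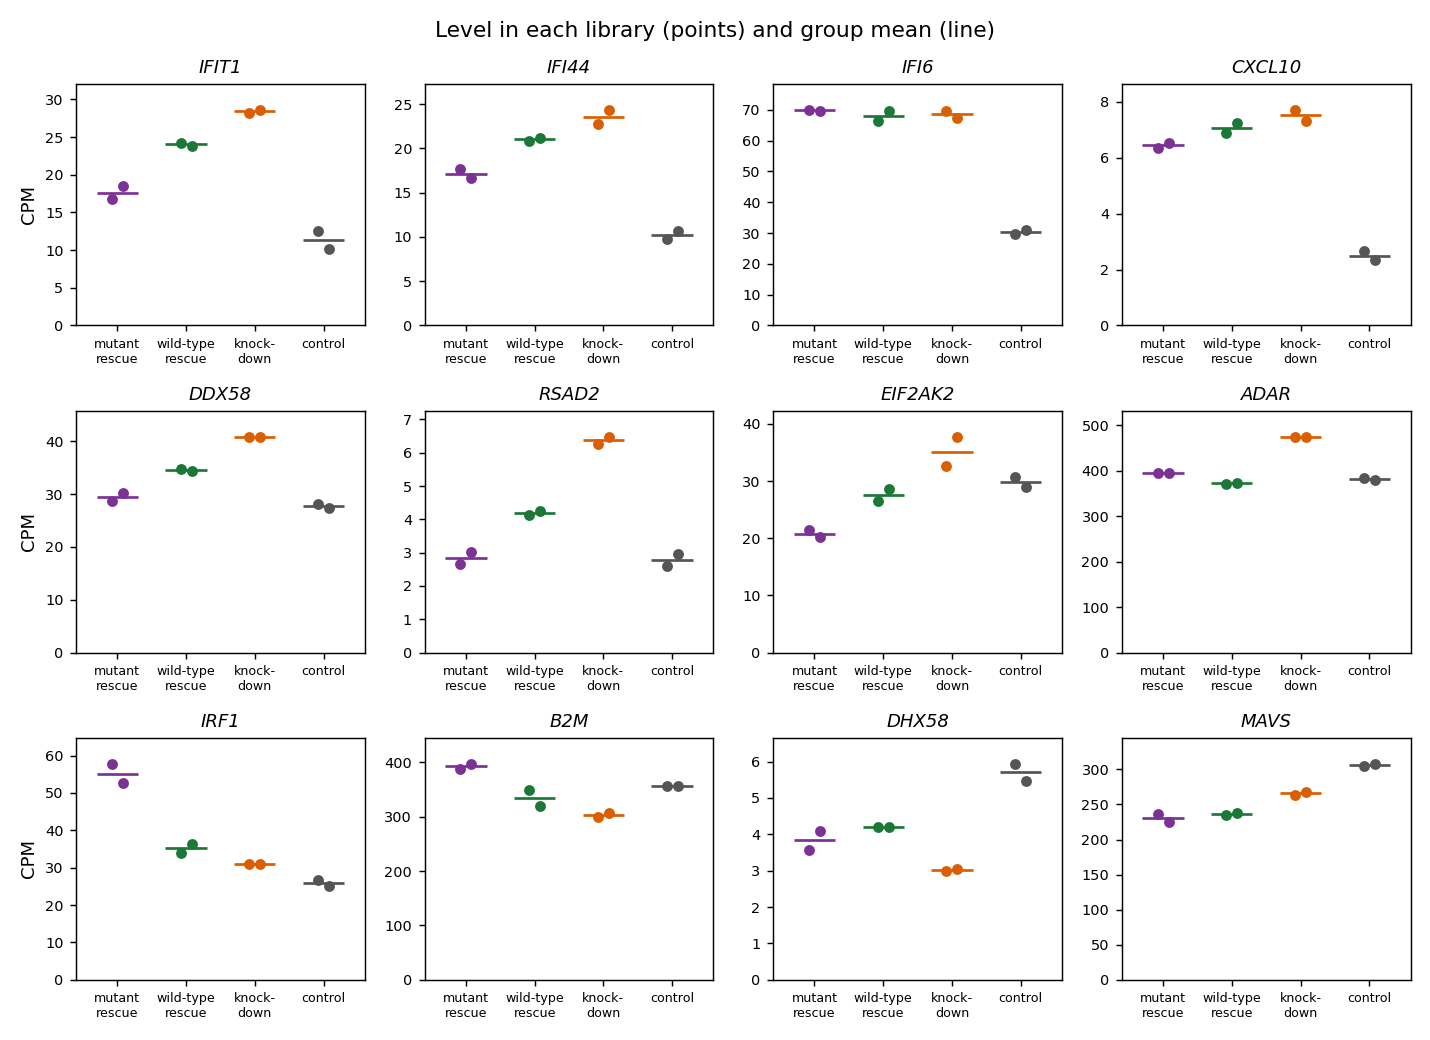
CPM in each of the 8 libraries (points, replicate 1 left of replicate 2) with the line mean (bar) for 12 members, each on its own axis from 0. IFIT1 and RSAD2 are highest in the knockdown, IFI6 and CXCL10 are high in the 3 hairpin lines and low in the control, IRF1 and B2M are highest in the mutant rescue, and MAVS and DHX58 are highest in the control.

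ISG15 encodes a ubiquitin-like protein that is attached to other proteins, with HERC5 as its ligase and USP18 as its protease. ISG15 had 57.1 and 54.9 CPM in the mutant rescue, 67.6 and 72.3 CPM in the wild-type rescue, 67.8 and 67.7 CPM in the knockdown and 51.0 and 55.7 CPM in the control. The wild-type rescue and the knockdown were high and the mutant rescue overlapped the control. It rose on knockdown by 0.34 (SE 0.050, edgeR adjusted p = 1.61e-09) and was lower in the mutant than in the wild-type rescue by 0.32 (SE 0.050, edgeR adjusted p = 1.15e-08). HERC5 had 16.7 and 16.9 CPM in the mutant rescue and 13.8 and 15.7 CPM in the wild-type rescue, with 21.4 and 18.5 CPM in the knockdown against 13.1 and 14.7 CPM in the control. HERC5 rose on knockdown by 0.52 (SE 0.094, edgeR adjusted p = 7.19e-07). HERC6, a relative of HERC5, had 9.79 and 9.88 CPM with dead METTL3, 17.3 and 15.3 CPM with wild-type METTL3, 20.1 and 19.1 CPM in the knockdown and 16.5 and 15.1 CPM in control cells. The mutant rescue held the lowest HERC6 libraries, with a fall of 1.00 (SE 0.10, edgeR adjusted p = 1.14e-16) against the knockdown and of 0.72 (SE 0.11, edgeR adjusted p = 3.23e-09) against the wild-type rescue. The rise of HERC6 on knockdown, 0.32 (SE 0.091), was lost at an adjusted p of 0.0627 without control replicate 2. USP18 was called in 1 comparison, higher in the mutant rescue (18.3 and 17.7 CPM) than in the control (15.4 and 14.2 CPM), and that call was lost at an adjusted p of 0.0746 with DESeq2, 0.0557 without mutant rescue replicate 1 and 0.0973 without control replicate 2.

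RSAD2 encodes viperin, which makes a chain-terminating nucleotide from the product of the neighbouring gene CMPK2. RSAD2 had 2.65 and 3.02 CPM in the mutant rescue, 4.12 and 4.25 CPM in the wild-type rescue, 6.26 and 6.48 CPM in the knockdown and 2.59 and 2.96 CPM in the control. The knockdown libraries were the highest, the wild-type rescue lay between, and the mutant rescue overlapped the control. RSAD2 rose on knockdown by 1.20 (SE 0.18, edgeR adjusted p = 6.07e-09) and fell in the mutant rescue against the knockdown by 1.16 (SE 0.18, edgeR adjusted p = 1.23e-08). In the wild-type rescue the fall against the knockdown was 0.60 (SE 0.16, edgeR adjusted p = 0.00254), a value for which DESeq2 gave no adjusted p. CMPK2 rose on knockdown to 4.01 and 6.10 CPM, against 3.29 and 3.53 CPM in the control (log2 fold change 0.55, SE 0.19, edgeR adjusted p = 0.00958), but the call was lost at an adjusted p of 0.108 with DESeq2, 0.455 without knockdown replicate 2 and 0.0847 without control replicate 1. Exons of RSAD2 and CMPK2 overlap on opposite strands, and the strand setting of the counting is not given in the sources used here. SAMD9, which restricts poxviruses, had 6.75 and 6.04 CPM in the mutant rescue and 10.4 and 9.01 CPM in the wild-type rescue, with 12.6 and 10.9 CPM in the knockdown against 7.08 and 6.11 CPM in the control. It rose on knockdown by 0.84 (SE 0.13, edgeR adjusted p = 5.58e-09) and fell in the mutant rescue, where it overlapped the control, by 0.88 (SE 0.13, edgeR adjusted p = 1.20e-09) against the knockdown.

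Other antiviral effectors moved less or in the other direction. ISG20, an exonuclease, had 27.3 and 25.6 CPM with dead METTL3, 26.9 and 24.9 CPM with wild-type METTL3, 23.2 and 22.3 CPM in the knockdown and 30.4 and 28.8 CPM in control cells. ISG20 fell on knockdown by 0.38 (SE 0.075, edgeR adjusted p = 6.35e-06). MX1, a GTPase that blocks viral replication complexes, had 5.16 and 6.30 CPM in the mutant rescue, 4.45 and 5.19 CPM in the wild-type rescue, 5.64 and 5.53 CPM in the knockdown and 7.39 and 6.74 CPM in the control. Both control libraries lay above the 6 others for MX1, whose log2 fold change on knockdown was -0.34 (SE 0.15), with an edgeR adjusted p = 0.0519. It was lower in the wild-type rescue than in the control by 0.54 (SE 0.15, edgeR adjusted p = 0.00171). MX2, which was not tested, had 4 to 10 counts a library. TRIM21, an antibody receptor inside the cell, rose on knockdown to 21.9 and 20.1 CPM, against 17.1 and 17.1 CPM in the control, but the call was lost at an adjusted p of 0.0704 without knockdown replicate 1. TRIM22 was higher in the mutant rescue, at 8.60 and 7.87 CPM against 5.62 and 5.79 CPM in the control (log2 fold change 0.53, SE 0.15, edgeR adjusted p = 9.60e-04). BST2, which tethers budding viruses, was called in 1 comparison, higher in the wild-type rescue than in the control (log2 fold change 0.44, SE 0.17, edgeR adjusted p = 0.0252). That call was lost at an adjusted p of 0.163 with DESeq2, 0.0676 with the length trend removed, 0.0844 without wild-type rescue replicate 1, 0.0674 without wild-type rescue replicate 2, 0.0510 without control replicate 1 and 0.159 without control replicate 2.

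Of the interferon-induced genes whose function is less settled, 5 of 8 rose on knockdown, IFI44L, IFI44, IFI6, IFI27 and SP110, and none fell. IFI44L had 23 and 27 counts in the mutant rescue, 36 and 41 counts in the wild-type rescue and 48 and 46 counts in the knockdown, against 5 and 5 in the control. Every hairpin library was above both control libraries, and the rise on knockdown was 3.12 (SE 0.38, edgeR adjusted p = 1.14e-12). IFI44 had 17.7 and 16.6 CPM in the mutant rescue and 20.9 and 21.2 CPM in the wild-type rescue, with 22.7 and 24.4 CPM in the knockdown against 9.79 and 10.7 CPM in the control. It rose on knockdown by 1.20 (SE 0.10, edgeR adjusted p = 1.19e-23) and lay lower in the mutant than in the wild-type rescue (log2 fold change -0.30, SE 0.088, edgeR adjusted p = 0.00356), lost at an adjusted p of 0.0593 with DESeq2 and 0.0666 without mutant rescue replicate 2. IFI6, a mitochondrial protein that delays apoptosis, had 70.1 and 69.7 CPM with dead METTL3, 66.4 and 69.7 CPM with wild-type METTL3, 69.7 and 67.4 CPM in the knockdown and 29.7 and 30.9 CPM in control cells. The 3 hairpin lines overlapped each other and stood far from the control, their log2 fold changes against the control being 1.21 (SE 0.056) in the mutant rescue, 1.17 (SE 0.056) in the wild-type rescue and 1.18 (SE 0.056) for the knockdown. SP110, a nuclear body protein, was higher on knockdown by 0.45 (SE 0.095, edgeR adjusted p = 2.11e-05). IFI27 rose on knockdown to 3.27 and 1.40 CPM, against 1.26 and 1.32 CPM in the control, and the call was lost at an adjusted p of 0.107 with DESeq2, 0.857 without knockdown replicate 1, 0.0700 without control replicate 1 and 0.0515 without control replicate 2. IFI35, EPSTI1 and XAF1 were called in none of the 6 comparisons; XAF1 had 5 to 12 counts a library.

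The ADP-ribosyltransferases of the set split on knockdown. PARP14 had 42.9 and 42.6 CPM in the mutant rescue, 33.9 and 33.3 CPM in the wild-type rescue, 35.7 and 33.2 CPM in the knockdown and 26.9 and 27.7 CPM in the control. The mutant rescue libraries were the highest and the control libraries the lowest, with a rise on knockdown of 0.34 (SE 0.068, edgeR adjusted p = 8.22e-06) and a further one of 0.31 (SE 0.062, edgeR adjusted p = 6.15e-06) in the mutant rescue over the knockdown. PARP12 had 31.2 and 31.4 CPM in the mutant rescue and 30.2 and 30.5 CPM in the wild-type rescue, with 27.2 and 29.2 CPM in the knockdown against 39.9 and 39.2 CPM in the control. PARP12 fell on knockdown by 0.49 (SE 0.065, edgeR adjusted p = 4.91e-11). PARP9 had 54.9 and 54.2 CPM with dead METTL3, 65.0 and 66.7 CPM with wild-type METTL3, 68.2 and 61.5 CPM in the knockdown and 56.5 and 56.0 CPM in control cells. The PARP9 libraries of the mutant rescue lay below all others, lower than the wild-type rescue by 0.27 (SE 0.050, edgeR adjusted p = 1.95e-06). PARP9 rose on knockdown (log2 fold change 0.21, SE 0.050, edgeR adjusted p = 2.18e-04), lost at an adjusted p of 0.0806 without knockdown replicate 1. Its exons overlap those of DTX3L on the opposite strand.

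Both chemokines of the set, which draw T cells through CXCR3, were higher in the 3 hairpin lines. CXCL10 had 6.35 and 6.55 CPM in the mutant rescue, 6.90 and 7.24 CPM in the wild-type rescue, 7.73 and 7.31 CPM in the knockdown and 2.65 and 2.33 CPM in the control. Every hairpin library exceeded both control libraries, and the rise on knockdown was 1.59 (SE 0.18, edgeR adjusted p = 1.09e-14). Against the knockdown CXCL10 had log2 fold changes of -0.22 (SE 0.14) in the mutant rescue and -0.089 (SE 0.14) in the wild-type rescue, neither called. CXCL11 had 3.37 and 2.33 CPM in the mutant rescue and 3.22 and 2.38 CPM in the wild-type rescue, with 3.27 and 1.97 CPM in the knockdown against 1.20 and 1.83 CPM in the control. It was higher than in the control on knockdown by 0.81 (SE 0.27, edgeR adjusted p = 0.00932), lost at an adjusted p of 0.106 with DESeq2, 0.433 without knockdown replicate 1 and 0.201 without control replicate 1.

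The 3 antigen display genes of the set, B2M, HLA-B and TAP1, were highest in the mutant rescue. B2M, the invariant chain of class I molecules, had 387 and 397 CPM with dead METTL3, 348 and 319.7 CPM with wild-type METTL3, 299 and 306 CPM in the knockdown and 357 and 356 CPM in control cells. The knockdown was lowest, by 0.24 (SE 0.025, edgeR adjusted p = 2.03e-14) below the control, and the mutant rescue highest, by 0.37 (SE 0.025, edgeR adjusted p = 9.89e-27) over the knockdown and by 0.23 (SE 0.025, edgeR adjusted p = 1.43e-14) over the wild-type rescue. HLA-B, a class I heavy chain, had 209.9 and 211 CPM in the mutant rescue, 183 and 178 CPM in the wild-type rescue, 154 and 154 CPM in the knockdown and 143 and 147 CPM in the control. The order was mutant rescue, wild-type rescue, knockdown and control, without overlap. HLA-B was higher in the mutant than in the wild-type rescue by 0.22 (SE 0.029, edgeR adjusted p = 6.32e-11). Its small rise on knockdown, 0.083 (SE 0.032), was lost at an adjusted p of 0.0900 with DESeq2, 0.680 with the length trend removed, 0.0836 without knockdown replicate 1, 0.0713 without knockdown replicate 2 and 0.210 without control replicate 1, and its sign turned with the length trend removed. Reads of HLA-B cannot be told apart from those of HLA-C where the sequences match. TAP1, which carries peptides to class I molecules, had 86.2 and 85.0 CPM in the mutant rescue and 71.5 and 68.7 CPM in the wild-type rescue, with 69.2 and 68.3 CPM in the knockdown against 65.2 and 68.3 CPM in the control. TAP1 rose in the mutant rescue over the wild-type rescue by 0.29 (SE 0.046, edgeR adjusted p = 3.81e-08).

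**Figure D3:**
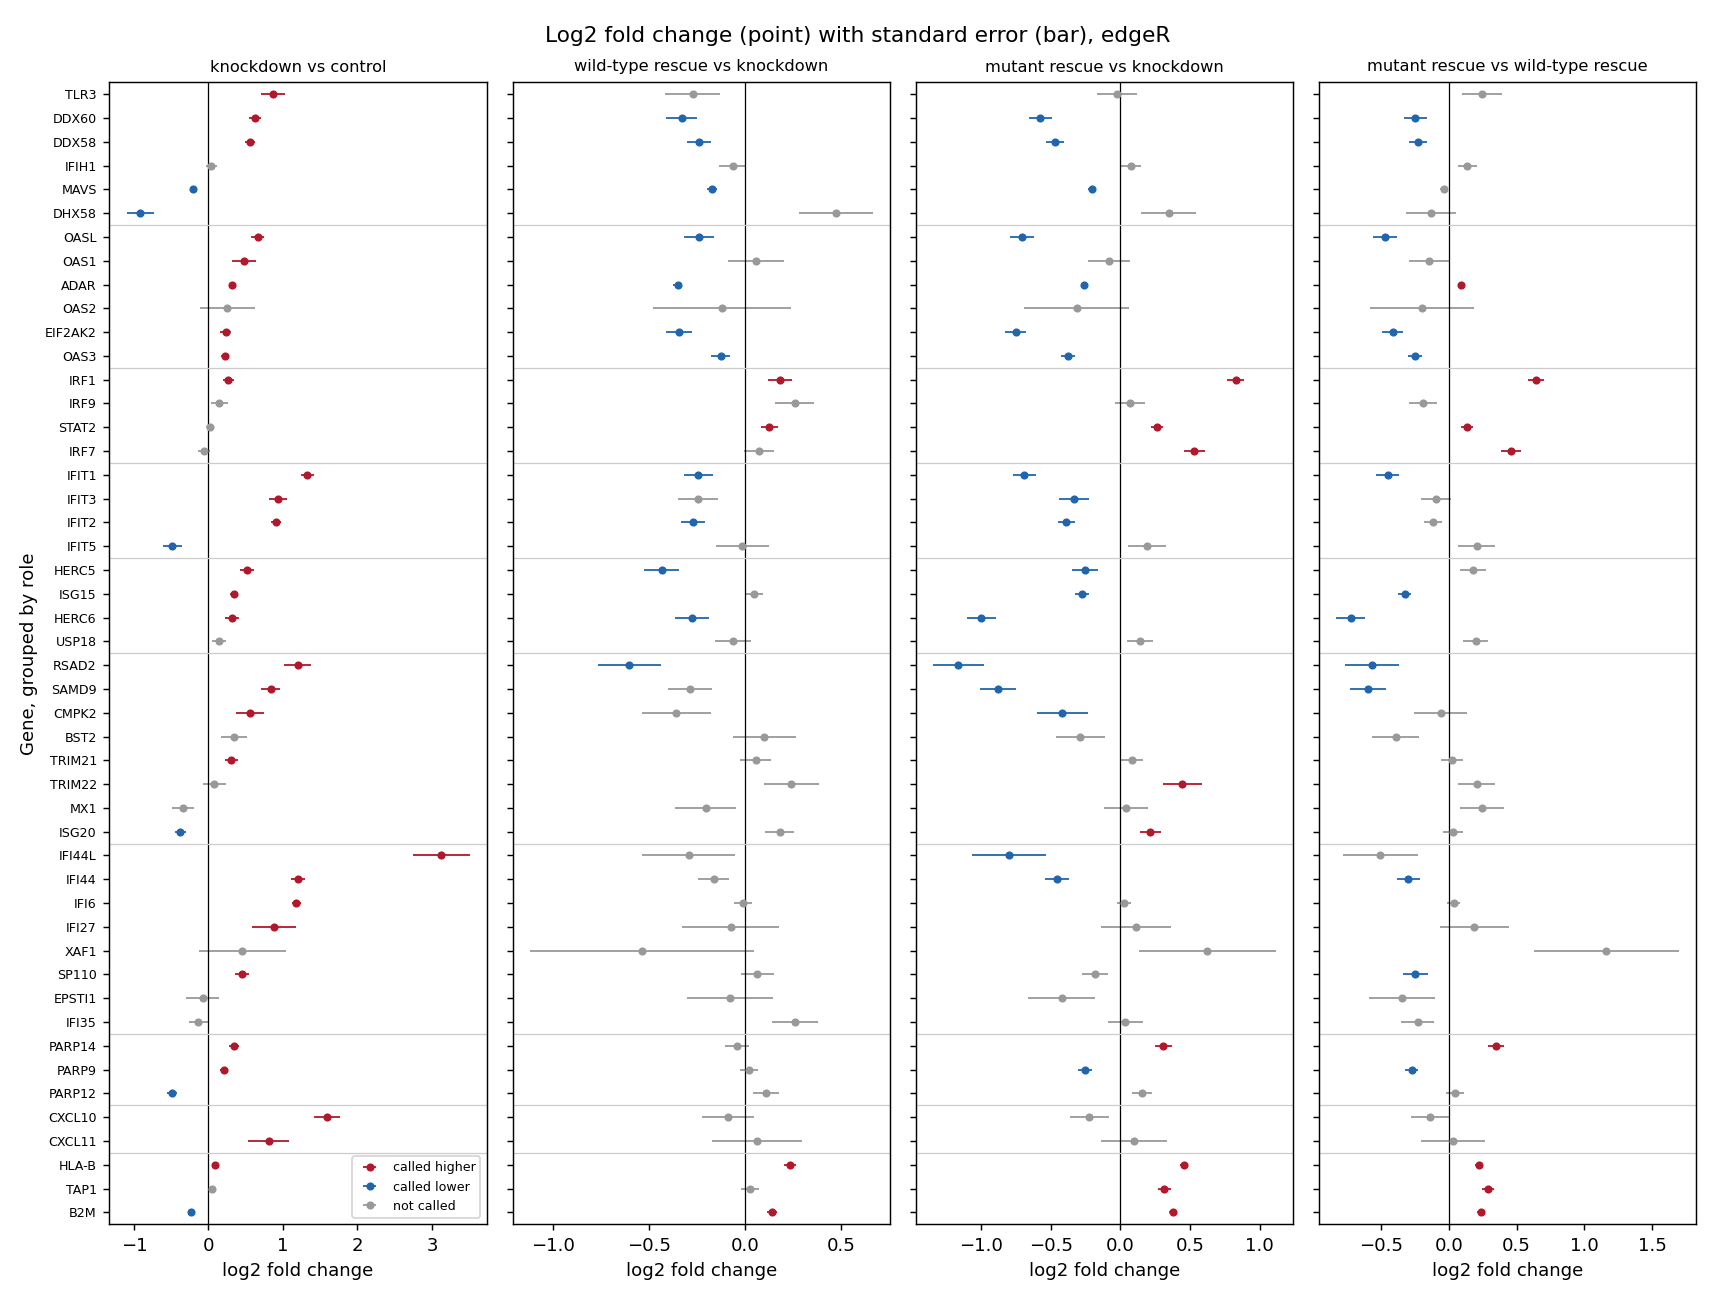
Log2 fold change (point) with its standard error (bar) for the 48 tested members, grouped by role, in 4 comparisons, each on its own axis. Red and blue mark genes called higher and lower at an edgeR adjusted p under 0.05; 29 members are red on knockdown, and in the mutant rescue IRF1, IRF7, HLA-B, TAP1 and B2M are red where DDX58, OASL, IFIT1 and HERC6 are blue.

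Genes of the same pathway outside the set were counted on lists chosen with earlier results of these data known. Of 26 interferon ligands, receptors and signalling genes 19 were tested, and on knockdown 7 rose (36.8%) and 2 fell (10.5%), beside 22.9% and 25.1% of all tested genes. The interferon genes on this list, which holds no interferon alpha gene, were at or near 0. IFNB1 had 0 and 1 counts in the mutant rescue, 3 and 2 counts in the wild-type rescue, 3 and 0 counts in the knockdown and 1 and 0 in the control, and IFNG had 0 in all 8 libraries. IFNL1 had 1 to 11 counts a library. JAK1, a kinase of the receptor, had 17.0 and 17.9 CPM with dead METTL3, 18.6 and 17.7 CPM with wild-type METTL3, 14.7 and 16.1 CPM in the knockdown and 12.6 and 11.1 CPM in control cells. It was higher on knockdown (log2 fold change 0.37, SE 0.10, edgeR adjusted p = 0.00121), lost at an adjusted p of 0.0562 without control replicate 2, and higher in the mutant rescue than in the control by 0.56 (SE 0.10, edgeR adjusted p = 5.97e-07). The receptor chain IFNAR1 fell in the mutant rescue to 46.3 and 51.4 CPM, against 78.3 and 78.3 CPM in the knockdown, by 0.68 (SE 0.051, edgeR adjusted p = 4.21e-26). In the wild-type rescue IFNAR1 was also below the knockdown, at 65.2 and 62.0 CPM, and the control had 85.5 and 80.3 CPM. IFNAR2 stood at 27.1 and 27.6 CPM in the knockdown and 29.3 and 32.2 CPM in the control; it was lower in the knockdown by 0.17 (SE 0.070, edgeR adjusted p = 0.0388), lost at an adjusted p of 0.0660 without the filter, 0.225 with DESeq2, 0.0595 with only these groups fitted, 0.111 with the length trend removed, 0.155 without knockdown replicate 1, 0.0816 without knockdown replicate 2 and 0.403 without control replicate 2. IFNGR1 rose on knockdown by 0.38 (SE 0.047, edgeR adjusted p = 2.60e-12) and IFNGR2 fell by 0.41 (SE 0.062, edgeR adjusted p = 1.01e-08). SOCS1, a brake on JAK kinases, had a log2 fold change of 1.02 (SE 0.35) from 36 and 20 counts in the knockdown and 12 and 14 in the control, and its call was lost at an adjusted p of 0.0863 with DESeq2, 0.292 without knockdown replicate 1 and 0.0888 without control replicate 1. IRF3, the factor that sensors activate first, was higher in the mutant rescue than in the knockdown by 0.43 (SE 0.042, edgeR adjusted p = 4.99e-18).

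Of 32 further nucleic acid sensing genes 26 were tested, and on knockdown 8 rose and 8 fell (30.8% each), beside 22.9% and 25.1% of all tested genes. MB21D1, which encodes the DNA sensor cGAS, had 0 to 3 counts a library. TMEM173 (STING) and TBK1, the kinase shared by these routes, were called in none of the 6 comparisons, TBK1 at 74.6 and 73.6 CPM in the knockdown and 75.7 and 75.6 CPM in the control. TRAF6 rose on knockdown by 0.53 (SE 0.10, edgeR adjusted p = 2.07e-06) and TREX1, a DNA exonuclease, fell by 0.36 (SE 0.054, edgeR adjusted p = 3.90e-09). The fall of TLR9, -1.68 (SE 0.47), rested on 5 and 8 counts in the knockdown and 24 and 16 in the control and was lost at an adjusted p of 0.0790 with DESeq2, 0.0703 without knockdown replicate 1 and 0.0802 without control replicate 1. In the mutant rescue against the knockdown 3 of the 26 rose and 10 fell (38.5%), beside 25.9% higher and 25.8% lower among all tested genes. The falls were led by the helicase DHX9 (log2 fold change -0.70, SE 0.033, edgeR adjusted p = 4.63e-46), followed by the nucleotide hydrolase SAMHD1 (log2 fold change -0.60, SE 0.063, edgeR adjusted p = 3.12e-16).

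Antigen display genes outside the set, 21 of 21 tested, showed 6 rises (28.6%) and 4 falls (19.0%) on knockdown, near the 22.9% and 25.1% of all tested genes. In the mutant rescue 12 rose (57.1%) and 2 fell (9.52%) against the knockdown, beside 25.9% and 25.8% of all genes. Against the wild-type rescue 6 rose there (28.6%), near the 21% of all genes, and none fell, beside 20.3%. In the wild-type rescue 11 rose (52.4%) and 1 fell (4.76%) against the knockdown, beside 10.8% and 13.2% of all genes. Not all were highest in the mutant rescue: CANX, a chaperone of class I folding, averaged 620.4 ± 1.64 CPM there, 639.5 ± 11.2 CPM in the wild-type rescue, 705 ± 12.6 CPM in the knockdown and 789.6 ± 9.26 CPM in the control (SD, n = 2 each). HLA-F rose on knockdown by 0.44 (SE 0.10, edgeR adjusted p = 6.58e-05). PSMB9, a subunit of the immunoproteasome whose gene lies beside TAP1, fell on knockdown by 0.65 (SE 0.16, edgeR adjusted p = 3.29e-04) and was higher in the mutant rescue than in the knockdown by 0.71 (SE 0.16, edgeR adjusted p = 8.12e-05).

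Read across the 8 libraries, 20 of 48 tested members (41.7%) had all 6 hairpin libraries above both control libraries, where 20% of all tested genes did. Another 6 (12.5%) had all 6 below, where 21.8% of all genes did. These 6 were IFIT5, ISG20, MX1, DHX58, PARP12 and MAVS. The mutant rescue libraries were above the other 6 in 10 members (20.8%), against 20.2% of all genes, so that share was near the background. They were below the other 6 in 5 members (10.4%), OAS3, HERC6, PARP9, EPSTI1 and EIF2AK2, against 19.9% of all genes. By line means the knockdown was highest in 19 of 48 members, the mutant rescue in 15, the wild-type rescue in 7 and the control in 7, and the control was lowest in 28. This order was not counted over all tested genes, so whether it is particular to the members was not tested. In bulk RNA a change in the share of cells that express a gene cannot be told apart from a change in RNA per cell.

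Levels per length, in CPM per kilobase of the deposited gene length averaged over the 8 libraries, spanned a wide range. B2M was highest at 351, followed by ISG15 at 92.7, IFI6 at 68.8, ADAR at 57.2 and MAVS at 22.1. The lowest were XAF1 at 0.131, MX2 at 0.153, OAS2 at 0.168 and IFI44L at 0.298. MX1, often among the strongest interferon products, stood at 1.58, below the sensors DDX58 at 6.97 and IFIH1 at 7.72. The deposited length of 25160 bases for TAP1 and 9666 for HLA-B is 5.24 and 3.17 times the exon length in GENCODE release 29, so their level per length is not compared here.

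Members with and without the interferon motif in the promoter were both found among those that rose on knockdown. Of 25 tested members with the interferon motif, 16 rose and 4 fell, with a median log2 fold change of 0.34. Of 16 members with a promoter but without it, 11 rose and 1 fell, with a median of 0.32. Among all tested genes 22.9% rose and 25.1% fell. The division rests on 1 annotated start for each gene. No test was made of this division, and these counts are a description.

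**Figure D4:**
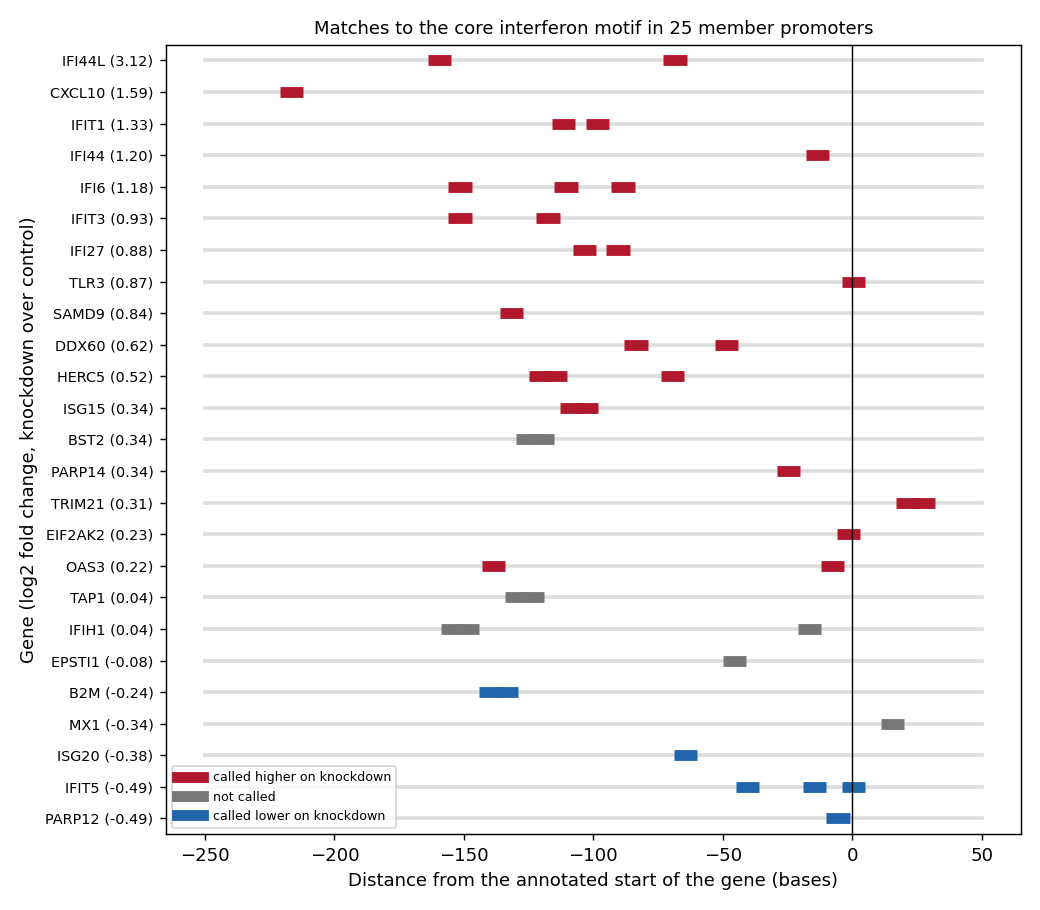
Positions of the interferon motif, on either strand, from 250 bases before to 50 after the annotated start in the 25 member promoters that hold it, ordered by the log2 fold change of knockdown over control given beside each gene. Colour gives the call on knockdown; members that rose and members that fell, such as IFIT5 and PARP12, both hold matches.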

How the data were processed

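Total RNA was extracted with TRIzol and libraries were made with the KAPA Stranded mRNA-Seq kit, per the labels' protocols. The build hg19 and the tools CASAVA, STAR 2.5.2b, featureCounts and DESeq2 are listed in the submitters' processing notes, with no parameters. Deposited were raw read counts for each gene, with a gene length in bases beside them; the authors' annotation is not given in the sources used here. Genes were kept by filterByExpr (minimum count 10, minimum total 15), libraries were scaled by TMM, and 1 quasi-likelihood model with a mean per line was fitted to all 8 libraries in edgeR 4.0.16 (R 4.3.3). The 6 pairwise comparisons were two-sided, with Benjamini-Hochberg adjustment over 15289 genes and calls under 0.05. SE is the absolute log2 fold change over the square root of F. With 2 libraries a line no exact permutation test can reach 0.05. No molecular identifiers are named in the labels, so counts may include copies of 1 molecule, and totals of 15200343 to 17893241 limit the precision of genes with few counts.

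The members and lists were chosen with earlier results of these data known; all members could be named, and from the other lists the fixed genes and the 2 largest changes each way. Alternatives were DESeq2 size factors, no filter, the DESeq2 1.42.0 Wald test, only the lines compared, the replicate number as a block, removal of the trend over gene length (lowess, span 0.3) and each library left out in turn, where the lone library is assumed to vary like the other lines. The steps were tested on simulated data. Annotated exons of 10 members overlap those of another gene of the table (RSAD2 with CMPK2, and PARP9, EIF2AK2, IRF1, SP110, IFIT2, TRIM22, TAP1 and HLA-B with others), so their counts are less certain. Some genes are not reported here.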

Additional observations from a re-analysis of the deposited data

How the results depend on the processing

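Numbers of members called kept within 1.5 times their value under every alternative except the following. The DESeq2 Wald test called 2 members higher and 7 lower in the wild-type rescue against the knockdown, and 4 lower in the mutant rescue against the control. With 1 library left out in turn, the members higher and lower ranged from 24 to 29 and from 6 to 7 on knockdown, from 2 to 5 and from 9 to 12 in the wild-type rescue against the knockdown, and from 7 to 10 and from 16 to 19 in the mutant rescue against the knockdown. For the mutant against the wild-type rescue they ranged from 7 to 8 and from 9 to 13, for the wild-type rescue against the control from 21 to 26 and from 4 to 7, and for the mutant rescue against the control from 19 to 24 and from 5 to 8. Calls that held under all alternatives that gave a p numbered 26 of 35 on knockdown, 7 of 16 in the wild-type rescue and 22 of 28 in the mutant rescue against the knockdown, 15 of 21 between the rescues, 22 of 33 in the wild-type rescue and 22 of 32 in the mutant rescue against the control. DESeq2 gave no adjusted p in 24 of the members' comparisons, 1 of them called by edgeR. With the length trend removed the log2 fold change turned to -0.018 for HLA-B and -0.058 for RNF213 on knockdown, and to -0.093 for IFITM3 in the mutant rescue against the control. With the replicate number as a block every count of members was as before, 29 and 6 on knockdown. No difference shared by replicate number was seen. The correlation across genes of the differences between replicate 1 and replicate 2 of 2 lines lay between -0.0424 and 0.0250. Whether libraries of the same number were grown or prepared together cannot be told from these correlations. Depth limits IFI44L, XAF1, OAS2, IFI27 and CXCL11 most, which had few counts.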

Other observations

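A further list of 39 interferon-stimulated genes outside the set, 35 of them tested, lay near the background on knockdown. Of the 35, 10 rose (28.6%) and 9 fell (25.7%), beside 22.9% and 25.1% of all tested genes, and the median log2 fold change was 0.061 over the list. GBP2, a guanylate-binding protein, had 30.5 and 32.9 CPM in the mutant rescue, 31.5 and 31.3 CPM in the wild-type rescue, 28.6 and 27.3 CPM in the knockdown and 11.4 and 12.3 CPM in the control. All 6 hairpin libraries lay above both control libraries, with a rise on knockdown of 1.23 (SE 0.088, edgeR adjusted p = 8.58e-28). SAMD9L, the neighbour and relative of SAMD9, rose by 1.93 (SE 0.42, edgeR adjusted p = 3.67e-05), with 28 and 25 counts in the knockdown and 5 and 8 in the control. SP100, a nuclear body protein, fell by 0.61 (SE 0.13, edgeR adjusted p = 1.55e-05), and UBA7, the enzyme that activates ISG15, by 0.56 (SE 0.10, edgeR adjusted p = 1.07e-06). In the mutant rescue 15 of this list rose (42.9%) and 6 fell (17.1%) against the knockdown, beside 25.9% and 25.8% of all genes. Against the wild-type rescue 13 rose there (37.1%) and 6 fell (17.1%), beside 21% and 20.3% of all genes. OGFR had 148 and 138 CPM in the mutant rescue and 97.4 and 99.5 CPM in the wild-type rescue, with 87.6 and 94.4 CPM in the knockdown against 91.5 and 97.3 CPM in the control. It was higher in the mutant than in the wild-type rescue by 0.54 (SE 0.039, edgeR adjusted p = 1.07e-26), and APOL6 was higher by 0.48 (SE 0.091, edgeR adjusted p = 3.75e-06). PNPT1, a mitochondrial RNA exonuclease, was lower there by 0.40 (SE 0.054, edgeR adjusted p = 1.67e-10).

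Within the ISG15 pathway the ligase and the activating enzyme differed in direction. HERC5 rose on knockdown by 0.52 (SE 0.094, edgeR adjusted p = 7.19e-07), while UBA7 had 16.1 and 15.7 CPM in the mutant rescue, 10.6 and 11.4 in the knockdown and 15.5 and 16.9 in the control. UBA7 was lowest in the knockdown and was higher in the mutant rescue than in the knockdown by 0.53 (SE 0.10, edgeR adjusted p = 4.03e-06). The difference between HERC5 and UBA7 was not tested.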
